A study of Mus musculus with 4 samples.

Results

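The angiogenic ligands and receptors are 10 genes of the 32285 in the count tables: the ligands Vegfa, Pgf, Angpt1, Angpt2, Dll4 and Apln, and the receptors Kdr, Flt1, Nrp1 and Tek. The members were chosen by gene symbol, each matched 1 row of the feature list, and their values were described in every cell class and in both genotypes. To profile the tumors, single cells from mammary tumors of mice at 17 to 18 weeks were measured with a droplet 3' kit. There were 4 libraries, and each was taken as 1 mouse. The control group was MMTV-Cre-; Frmd8fl/fl; PyMT (Cre-, replicates 1 and 3) and the knockout group was MMTV-Cre+; Frmd8fl/fl; PyMT (Cre+, replicates 2 and 4). All 4 mice carried the PyMT oncogene and both floxed Frmd8 alleles, and only the Cre+ mice carried the recombinase. The MMTV promoter drives both transgenes in the mammary epithelium, so the endothelial cells and fibroblasts of Cre+ tumors were not the designed site of deletion, and the cells had passed fluorescence-activated sorting before loading. The files name Cell Ranger 6.1.2 for replicates 1 to 3, deposited as called cells, and Cell Ranger 4 for Cre+ replicate 4, deposited with all barcodes, so that the difference of this library from the others cannot be told apart from its processing.

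New vessels grow when tissue secretes vascular endothelial growth factor A (Vegfa), which endothelial cells sense through the receptor tyrosine kinase Kdr (VEGFR2). Flt1 (VEGFR1) binds Vegfa and placental growth factor (Pgf) tightly and acts largely as a decoy, while Nrp1 is a co-receptor for Vegfa and for semaphorins. Angpt1 activates the endothelial receptor Tek (TIE2) and stabilizes vessels, and Angpt2, stored and released by endothelial cells, competes with it. Dll4 is the Notch ligand of the leading tip cells of a sprout, and Apln is a peptide ligand of the receptor Aplnr, also made by tip cells.

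Promoter windows of RefSeq (GRCm38.p6, 250 bases before to 50 after a start site) were given for 8 of the 10 members, and none was given for Angpt1 and Angpt2. The windows of Vegfa (chr17:46032328-46032627, minus strand), Pgf (chr12:85177264-85177563, minus strand) and Kdr (chr5:75978406-75978705, minus strand) are shown 5′ to 3′, since the levels of both ligands and of Kdr, the main receptor of Vegfa, are described along a list of hypoxia genes. For Vegfa and Pgf, which have 2 windows each, the outermost is shown. Capitals mark ACGTG or GCGTG on either strand, the core to which hypoxia-inducible factors are known to bind.
Vegfa: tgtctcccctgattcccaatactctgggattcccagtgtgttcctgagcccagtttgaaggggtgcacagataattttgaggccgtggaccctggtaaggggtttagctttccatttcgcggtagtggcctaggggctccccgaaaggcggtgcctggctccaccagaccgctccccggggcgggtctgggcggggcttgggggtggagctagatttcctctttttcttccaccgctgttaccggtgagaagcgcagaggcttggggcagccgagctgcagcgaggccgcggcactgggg
Pgf: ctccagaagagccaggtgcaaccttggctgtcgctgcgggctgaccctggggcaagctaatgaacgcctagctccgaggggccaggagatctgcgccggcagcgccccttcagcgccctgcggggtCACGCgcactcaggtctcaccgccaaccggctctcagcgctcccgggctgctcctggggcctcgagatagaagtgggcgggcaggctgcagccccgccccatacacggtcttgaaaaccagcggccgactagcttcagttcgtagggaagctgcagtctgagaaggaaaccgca
Kdr: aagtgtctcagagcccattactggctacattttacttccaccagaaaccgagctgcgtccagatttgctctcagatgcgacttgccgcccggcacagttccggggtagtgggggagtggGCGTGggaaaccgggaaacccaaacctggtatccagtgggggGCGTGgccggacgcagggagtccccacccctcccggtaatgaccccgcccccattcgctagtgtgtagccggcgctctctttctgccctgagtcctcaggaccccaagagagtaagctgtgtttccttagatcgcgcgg
The core was found in 5 of the 8 members' windows, namely in Kdr, Flt1, Pgf, Nrp1 and Dll4, and in 43.8% of the 32851 windows of all genes. Kdr held 2 matches, Pgf held 1, and these letters were not in the window shown for Vegfa. A match is a description of the letters and not a binding site.

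The 4 libraries held 112729231 to 157662955 unique molecular identifiers (UMIs, counted transcripts), and 4922 to 7123 barcodes per library had at least 1000 UMIs and at most 20% mitochondrial UMIs. Barcodes were placed in a class when at least 3 to 4 markers of its list had a UMI and no other list was met, and 6.1% to 13.2% that met several lists were left out as mixed. All 8 endothelial markers, all 8 pericyte markers and all 8 fibroblast markers were highest in their own class, and 6 of 7 dendritic, 4 of 5 monocyte and 7 of 8 T and NK markers were. The same markers had placed the barcodes, so this order was largely set by the gate and is no separate check of the classes. Endothelial barcodes numbered 175 and 167 in Cre- replicates 1 and 3 and 131 and 71 in Cre+ replicates 2 and 4, against 1771 to 2599 epithelial barcodes per library. The libraries shared 6 to 16 barcodes in pairs, at most 0.325% of the smaller library. In epithelial cells the targeted gene Frmd8 was at 24.7 and 23.8 CPM (UMIs per 1000000 UMIs of a class in a library) in Cre- replicates 1 and 3 and at 5.8 and 10.6 in Cre+ replicates 2 and 4. The Cre+ libraries were both lower, as for 1556 of 8330 genes of at least 10 CPM. The log2 fold change was -1.48 ± 0.41 (SE), but it did not pass the edgeR quasi-likelihood test across all genes (adjusted p = 0.9995). The kit reads transcript ends and the floxed exons lie inside the gene, so these counts do not measure the deletion itself. In endothelial cells Frmd8 was at 29.6 to 36.6 CPM in all 4 libraries, and both Cre+ libraries lay below both Cre- libraries, as for 1368 of 8100 genes. The same order was seen in macrophages (means of 24.7 in Cre- and 16.7 in Cre+, as for 1422 of 7529 genes) and monocytes (31.3 and 19.0). In monocytes the share of all genes with this order was not counted. The macrophage log2 fold change of -0.46 ± 0.20 (SE) was not called (adjusted p = 0.9999 by edgeR). In pericytes, fibroblasts and neutrophils the genotypes overlapped.

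To find which cells made each gene and which carried the receptors, the UMIs of each class were summed per mouse and compared across classes. All 4 receptors had their highest mean level in endothelial cells, while the UMIs of the ligand Vegfa lay mostly in other classes. The test set each class against the mean of the others with the mouse as a block, in 13542 genes and 37 sums of at least 20 barcodes. Of the 10 members, 8 were higher in endothelial cells (Kdr, Flt1, Nrp1, Tek, Dll4, Apln, Angpt2 and Pgf), where 29.0% of all genes tested were called higher. Vegfa was lower there (log2 fold change -3.21 ± 0.52 SE, adjusted p = 4.2e-06), and Angpt1 was not called. The median log2 difference of the members in endothelial cells was 7.43, against 0.11 for all genes. Where other classes hold no UMI, such a fitted difference depends on the prior count, so levels are given here for each member.

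**Figure D1:**
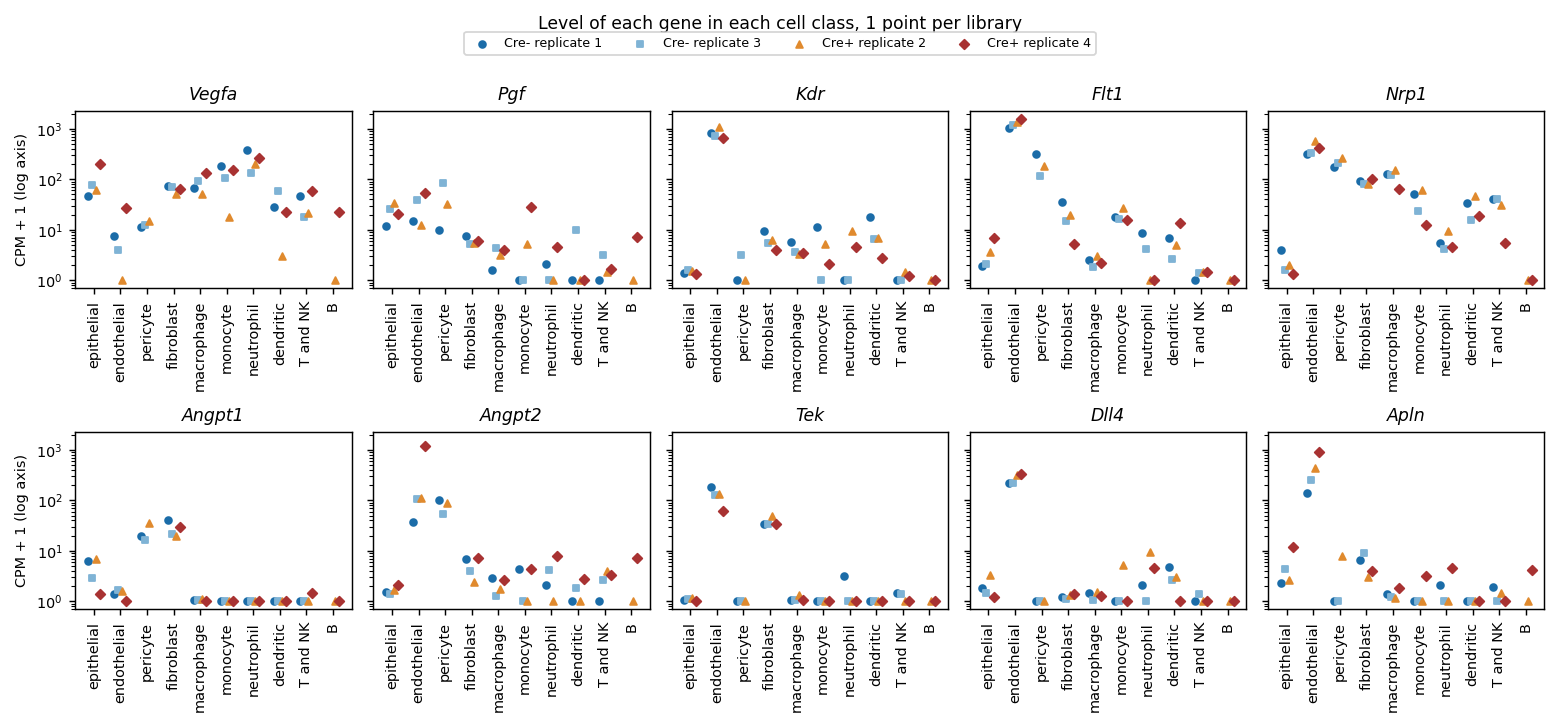
Level of each gene (CPM + 1, log axis) in each cell class, with 1 point per library (at least 20 barcodes) and color and shape for the library. Kdr, Dll4 and Apln stood far above all other classes in endothelial cells, Tek had a second class in fibroblasts, and Vegfa was spread over many classes.

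Vegfa had its highest mean in neutrophils, with 379 and 134 CPM in Cre- replicates 1 and 3 and 197 and 258 in Cre+ replicates 2 and 4. The mean over the libraries was 242 ± 104 CPM (SD, n = 4), and only 23 to 345 Vegfa UMIs stood behind each value. Neutrophils were called higher than the mean of the classes (log2 fold change 2.97 ± 0.34 SE, adjusted p = 9.4e-09), where 22.0% of genes were. Of the 14 hypoxia genes described further on, 11 were called higher in neutrophils too, led by Egln3 (139 CPM, mean of 4 libraries), an oxygen sensor, Slc2a1 (298), a glucose transporter, and Bnip3 (183). The order of the classes was not resolved by their ranges: neutrophils overlapped with monocytes (17.1 to 181 CPM) and epithelial cells (45.4 to 199), and these with macrophages (49.4 to 132) and fibroblasts (49.2 to 72.8). Vegfa was called higher in monocytes too (log2 fold change 1.59 ± 0.38 SE, adjusted p = 0.0017), where it was the only member among 16.7% of genes called higher. Endothelial cells held 6.7 and 3.0 CPM in Cre- replicates 1 and 3, none in Cre+ replicate 2 and 25.8 in Cre+ replicate 4. The free RNA of Cre+ replicate 4 (barcodes with 1 to 100 UMIs) held 182 CPM of Vegfa, below the neutrophils (258) and epithelial cells (199) of that library and above its macrophages (132), fibroblasts (62.7) and T and NK cells (58.9), and the part of free RNA in these levels was not tested.

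Epithelial cells and macrophages were the most frequent classes and together held most Vegfa molecules, at moderate levels. Epithelial cells held 53.4% and 42.9% of the Vegfa UMIs of all kept barcodes in Cre- replicates 1 and 3 and 47.1% and 51.8% in Cre+ replicates 2 and 4. The genotypes overlapped, with means of 48.2% ± 7.4 and 49.5% ± 3.3 (SD, n = 2 each; exact two-sided permutation test, p = 1; 2 against 2 mice cannot go below 0.333). Macrophages held 14.4% to 26.1%. Epithelial cells were 43.4% and 29.9% of the kept barcodes in Cre- replicates 1 and 3 and 37.7% and 36.5% in Cre+ replicates 2 and 4. Their depth (medians of 13108 to 22979 UMIs) also enters their share of Vegfa UMIs. This share was below the epithelial share of all UMIs in Cre- replicate 1, and above it in Cre- replicate 3 and both Cre+ libraries. Neutrophils, although highest per UMI, were 0.5% to 4.9% of the barcodes. An alternative kept only cells below 30000 UMIs and with 200 to 5000 genes, which takes the filter in the methods as limits to keep, although its wording is that such cells were excluded. With these limits the mean epithelial share was 40.3% instead of 48.8%.

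**Figure D2:**
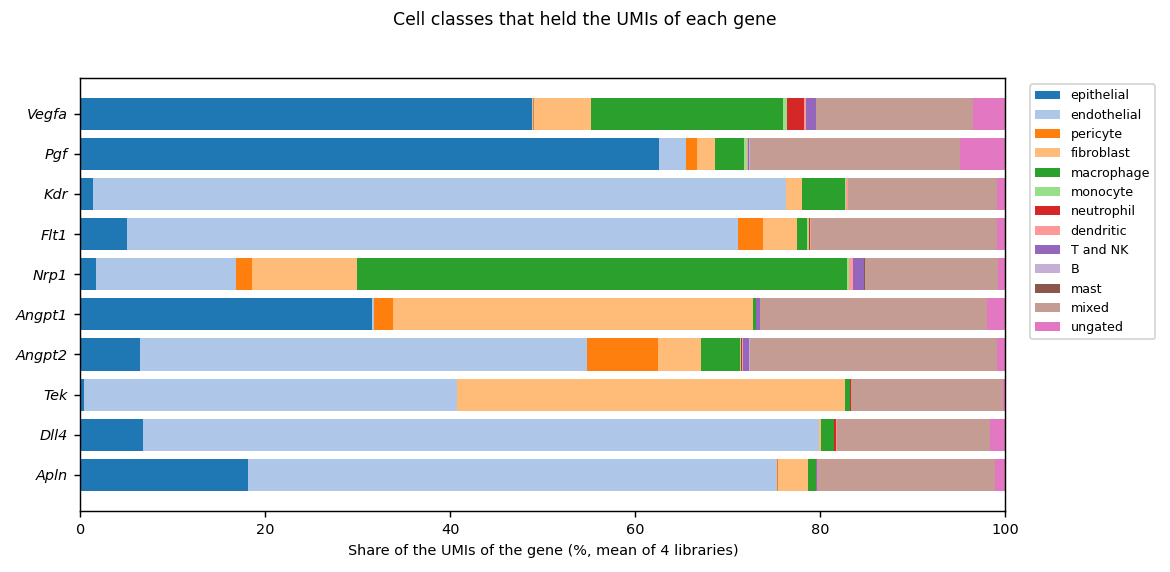
Share of the UMIs of each gene held by each cell class (%, stacked bars, mean of 4 libraries), with mixed and ungated barcodes shown as their own parts. Epithelial cells held the largest part of the Vegfa and Pgf UMIs, macrophages held the largest part of the Nrp1 UMIs, and Tek UMIs lay in endothelial cells and fibroblasts.

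Most UMIs of Pgf, the second ligand of Flt1, lay in epithelial cells, which held 55.5% to 70.9% of them. The number and depth of these cells also enter this share. The level of Pgf there was 11.0 and 25.1 CPM in Cre- replicates 1 and 3 and 33.2 and 19.8 in Cre+ replicates 2 and 4. Per UMI, pericytes (8.7 and 84.8 CPM in Cre- replicates 1 and 3, 30.7 in Cre+ replicate 2 and 163 in the 17 pericytes of Cre+ replicate 4) and endothelial cells (11.4 to 51.6) overlapped with epithelial cells. Pgf, Angpt1 and Vegfa were the 3 members called higher in epithelial cells, where 42.0% of genes were, and the Pgf difference was 2.11 ± 0.36 on the log2 scale (SE, adjusted p = 7.6e-06).

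Kdr, the main signaling receptor for Vegfa, had 813 and 720.4 CPM in endothelial cells of Cre- replicates 1 and 3 and 1068 and 672 in Cre+ replicates 2 and 4. No other class reached 20 CPM in any library, and the endothelial mean was 107 times the next one, dendritic cells. After thinning to 2000 UMIs per barcode, 66.7% to 79.6% of endothelial barcodes held a Kdr UMI, against at most 0.33% of T and NK barcodes (median depth 6123 to 14594 and 5647 to 12638 UMIs before thinning). Without thinning the endothelial share was 84.5% to 93.9%. Kdr was also called higher in dendritic cells (20.7% of genes called) and in fibroblasts, at 1.8 to 17.2 and 2.9 to 8.5 CPM. In the free RNA of Cre+ replicate 4, read from barcodes with 1 to 100 UMIs, it was at 4.0 CPM, and the part of free RNA in these low levels was not tested.

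Flt1 was higher than Kdr in endothelial cells of every library, at 1033 and 1168 CPM in Cre- replicates 1 and 3 and 1365 and 1565 in Cre+ replicates 2 and 4. These are UMIs counted at transcript ends, which do not scale with gene length. Pericytes, the contractile cells that wrap capillaries, formed a second Flt1 class at 310 and 116 CPM in Cre- replicates 1 and 3 and 184 and 268 in Cre+ replicates 2 and 4. Their Kdr was at 0 in all libraries but Cre- replicate 3 (2.2 CPM), so pericytes held Flt1 with almost no Kdr. Smooth muscle cells were not gated apart from this class. At least 3 of 5 smooth muscle markers were found in 27 of its 44 and 22 of its 36 barcodes in Cre- replicates 1 and 3. In Cre+ replicates 2 and 4 they were found in 20 of 31 and 14 of 17. The Flt1 difference of pericytes from the mean of the classes was 5.66 ± 0.45 on the log2 scale (SE, adjusted p = 7.3e-12). In all, 5 members were called higher in pericytes (Flt1, Angpt2, Nrp1, Pgf and Angpt1), where 23.6% of genes were.

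Nrp1 was the most widely spread receptor. Endothelial cells had 318 and 332 CPM in Cre- replicates 1 and 3 and 572 and 409 in Cre+ replicates 2 and 4. Pericytes had 172 to 260.0 CPM in the 3 libraries with at least 20 of them, and this range lay below the endothelial one. Macrophages had 124 and 122 CPM in Cre- replicates 1 and 3 and 149 and 63.0 in Cre+ replicates 2 and 4, and overlapped with fibroblasts (79.5 to 101). Since macrophages were abundant, they held 38.7% to 69.6% of all Nrp1 UMIs, against 8.6% to 20.6% in endothelial cells. Nrp1 and Vegfa were the 2 members called higher in macrophages, where 26.6% of genes were (Nrp1 log2 fold change 3.18 ± 0.39 SE, adjusted p = 5.0e-08). Epithelial cells were at 0.3 to 3.1 CPM. In T and NK barcodes with a Foxp3 UMI, the regulatory T cell factor, Nrp1 was at 40.2 to 78.3 CPM, against 3.8 to 39.5 in the others, and it was higher in the first in each of the 4 libraries. Only 10 to 24 barcodes per library held a Foxp3 UMI, and this split was chosen after the data were seen and was not tested.

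Both Angpt1 and its receptor Tek were found in fibroblasts. Angpt1 was highest in fibroblasts, at 39.8 and 20.9 CPM in Cre- replicates 1 and 3 and 19.1 and 28.6 in Cre+ replicates 2 and 4. Pericytes followed at 15.6 to 35.4 CPM and overlapped with fibroblasts. Endothelial cells held 4 Angpt1 UMIs in all 4 libraries. Epithelial cells had 0.4 to 5.9 CPM, a level at which their number gave them 16.1% to 49.5% of the Angpt1 UMIs.

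Tek was highest in endothelial cells, at 183 and 127 CPM in Cre- replicates 1 and 3 and 131 and 61.9 in Cre+ replicates 2 and 4. Fibroblasts had 33.5 and 32.7 CPM in Cre- replicates 1 and 3 and 48.8 and 32.4 in Cre+ replicates 2 and 4, a range that did not overlap with the endothelial one, and pericytes had no Tek UMI in any library. The fibroblast Tek was called higher than the mean of the classes (log2 fold change 8.28 ± 0.39 SE, adjusted p = 6.1e-15), as were 7 members in all, where 40.0% of genes were. The ratio of Tek to Kdr UMIs was 3.95 to 11.1 in fibroblasts and 0.092 to 0.22 in endothelial cells. In the free RNA of Cre+ replicate 4 Tek was at 0.6 CPM.

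Within fibroblasts, nearly all Tek UMIs lay in barcodes with a UMI of Pi16 or Dpp4, genes known to mark adventitial fibroblasts. Tek was at 54.3 and 36.4 CPM in these barcodes of Cre- replicates 1 and 3 and at 51.1 and 38.5 in Cre+ replicates 2 and 4. In barcodes with neither UMI it was at 0.51 and 3.1 CPM in Cre- replicates 1 and 3 and at 1.7 and 2.5 in Cre+ replicates 2 and 4, which rest on 1 to 3 UMIs per library. The 2 subsets did not overlap in any library. Barcodes with neither UMI were shallower in Cre- replicate 3 and Cre+ replicate 2 (medians of 1669 and 2181 UMIs, against 25091 and 28088), but in Cre- replicate 1 the depths were alike (22186 and 21684 UMIs). Its ligand Angpt1 was at 40.1, 22.1, 19.2 and 29.5 CPM with these UMIs and at 39.2, 11.3, 17.3 and 24.5 CPM without them (Cre- replicates 1 and 3, then Cre+ replicates 2 and 4), a smaller difference in the same direction. This split was chosen after the data were seen and has no test.

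Angpt2, the competing ligand of Tek, was at 37.0 and 104 CPM in endothelial cells of Cre- replicates 1 and 3, at 109 in Cre+ replicate 2 and at 1213 in Cre+ replicate 4. The last value was more than 10 times that of any other library. Pericytes held 101 and 53.6 CPM in Cre- replicates 1 and 3 and 89.8 and 66.0 in Cre+ replicates 2 and 4, within the range of the other endothelial libraries. In the remaining classes Angpt2 was at most 7.1 CPM.

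Dll4 was nearly restricted to endothelial cells, at 224 and 218 CPM in Cre- replicates 1 and 3 and 321 and 330.0 in Cre+ replicates 2 and 4. No other class passed 10 CPM. Apln was at 142 and 253 CPM in endothelial cells of Cre- replicates 1 and 3 and at 441 and 913 in Cre+ replicates 2 and 4. Its next class, fibroblasts, was at 2.0 to 8.0 CPM, and epithelial cells were at 1.3 to 3.3 CPM in replicates 1 to 3 and at 11.1 in Cre+ replicate 4. The free RNA of that library held 12.4 CPM of Apln, and the part of free RNA in the epithelial value was not tested.

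Endothelial cells were not uniform. The tip-like list (Esm1, Cxcr4, Nid2, Chst1 and Mcam) split them into 26, 53, 43 and 35 barcodes with 4 or 5 of its markers in Cre- replicates 1 and 3 and Cre+ replicates 2 and 4, and 149, 114, 88 and 36 with fewer. Angpt2 in the first subset was at 84.9 and 208 CPM in Cre- replicates 1 and 3 and at 195 and 1458 in Cre+ replicates 2 and 4. In the second subset it was at 19.7 and 26.4 CPM in Cre- replicates 1 and 3 and at 34.6 and 476 in Cre+ replicates 2 and 4. Angpt2 was thus higher in barcodes with more tip-like markers in every library, and Cre+ replicate 4 was high in both subsets.

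The receptor Tek went the other way in every library. It was at 114 and 74.5 CPM in tip-like barcodes of Cre- replicates 1 and 3 and at 69.4 and 37.8 in those of Cre+ replicates 2 and 4. In the remaining endothelial barcodes it was at 207 and 166 CPM in Cre- replicates 1 and 3 and at 185 and 135 in Cre+ replicates 2 and 4. Dll4 was at 291 to 366 CPM in tip-like barcodes and at 164 to 285 in the rest, higher in each library. Kdr was at 644 to 1224 CPM and 728 to 931 CPM, higher in tip-like barcodes in Cre+ replicate 2 alone. Tip-like barcodes were deeper (medians of 14529 to 22670 UMIs, against 2779 to 12285), and a deeper barcode meets more markers. The part of depth in these differences was not tested, and the number of markers was chosen after the data were seen.

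By vessel type, Dll4 was higher in barcodes with at least 2 arterial markers (327, 363 and 459 CPM in Cre- replicates 1 and 3 and Cre+ replicate 2) than in the rest (205, 176 and 299). Cre+ replicate 4, with 6 such barcodes, had 248 and 346 CPM and went the other way. Tek was higher in barcodes with at least 2 venous markers, at 204 and 150 CPM in Cre- replicates 1 and 3 and 159 and 84.8 in Cre+ replicates 2 and 4, than in the rest at 109, 78.4, 97.1 and 48.7. With at least 2 capillary markers Dll4 was at 201 to 315 CPM, against 255 to 682 in the rest, and it was lower in each library. A deeper barcode meets more of these markers too, and the part of depth in these differences was not tested. No test is given for these splits. At most 2 endothelial barcodes per library held 2 lymphatic markers, so lymphatic vessels were not described.

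**Figure D3:**
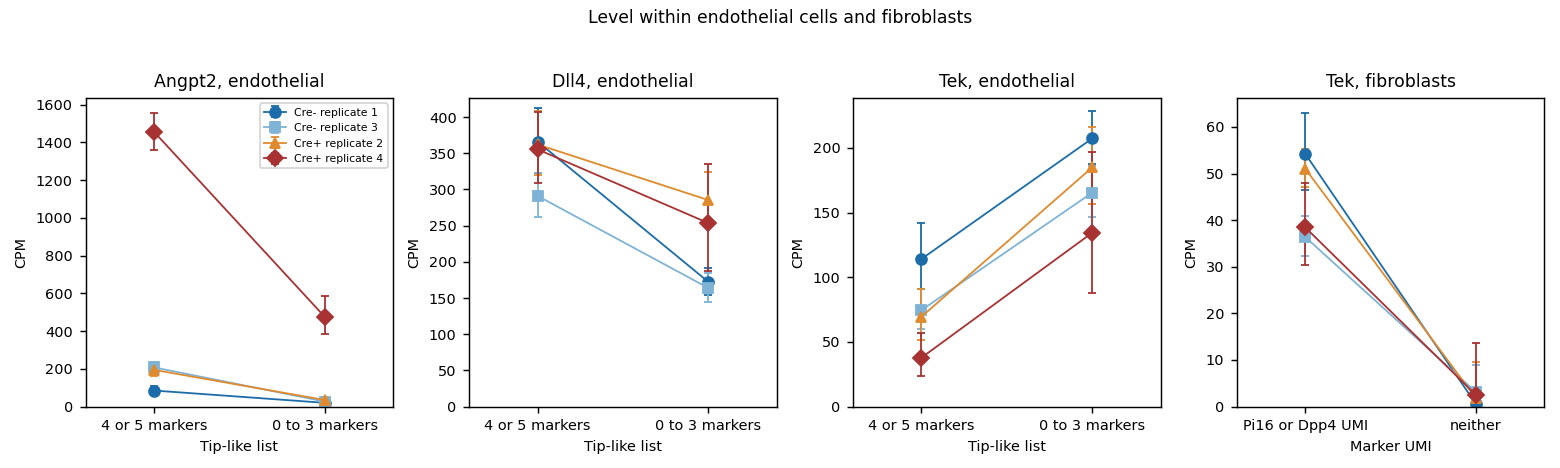
Level (CPM, with 95% Poisson intervals of the counts) of Angpt2, Dll4 and Tek in endothelial barcodes with 4 or 5 against 0 to 3 tip-like markers, and of Tek in fibroblasts with a Pi16 or Dpp4 UMI or neither, with 1 line per library. Angpt2 and Dll4 were higher and Tek was lower in tip-like barcodes of all 4 libraries, and fibroblast Tek fell to at most 3.1 CPM without these UMIs.

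Hypoxia, the lack of oxygen in growing tumors, is known to induce Vegfa. To describe the members along it, cells were ordered by the share of their UMIs on a list of 14 hypoxia genes, none of them a member. The cells of each class and library were then cut into bins of equal size. The share is a sum, and Aldoa and Ldha were its most abundant genes in each class binned. In epithelial cells of Cre- replicate 1 they were at 863 and 620 of the 2214 CPM of the list. Slc2a1, Car9 and Ndrg1 were at 31.8, 29.1 and 79.0 CPM there. Vegfa was higher with more of the list in epithelial cells of all 4 libraries. In the lowest of 5 bins it was at 28.1 and 26.9 CPM in Cre- replicates 1 and 3 and at 52.1 and 43.6 in Cre+ replicates 2 and 4. In the highest bin it was at 90.8 and 281 CPM in Cre- replicates 1 and 3 and at 89.7 and 691 in Cre+ replicates 2 and 4, which is 1.72 to 15.8 times the lowest. The libraries thus lay within 26.9 to 52.1 CPM in the lowest bin and within 89.7 to 691 CPM in the highest. The bins were cut by rank within each library, so a bin need not hold the same list level in all of them. Over all epithelial cells this level was 2214 to 2548 CPM in replicates 1 to 3 and 4391 in Cre+ replicate 4.

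Macrophages showed the same direction. From the lowest to the highest of 5 bins, Vegfa went from 39.0 to 92.6 CPM in Cre- replicate 1, from 23.4 to 253 in Cre- replicate 3, from 20.2 to 120.4 in Cre+ replicate 2 and from 41.1 to 329 in Cre+ replicate 4. In fibroblasts, cut into 3 bins, the highest had 1.42 to 3.66 times the Vegfa of the lowest. Pgf in epithelial cells was higher in the highest bin too, from 3.7 to 38.6 CPM in Cre- replicate 1, 11.6 to 69.7 in Cre- replicate 3 and 5.0 to 79.0 in Cre+ replicate 4, but in Cre+ replicate 2 it was at 36.6 and 38.2 CPM.

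In endothelial cells, cut into 3 bins, Apln and Angpt2 were higher in the highest bin of each library, and no receptor was higher in all 4. Apln was at 82.1 and 81.4 CPM in the lowest bin of Cre- replicates 1 and 3 and at 217 and 431 in that of Cre+ replicates 2 and 4, and the highest bin had 2.02 to 5.49 times as much. For Angpt2 the ratio was 2.12 to 6.27 in replicates 1 to 3 and 1.23 in Cre+ replicate 4, whose lowest bin was already at 936 CPM. Kdr had ratios of 0.56 to 1.09 and Flt1 of 0.65 to 1.26, while Tek (0.38 to 0.73) and Nrp1 (0.69 to 0.80) were lower in the highest bin in all 4 libraries. Nrp1 was also lower in the highest bin of macrophages, with ratios of 0.28 to 0.74. The lowest bin of endothelial barcodes was shallower, with medians of 3064 to 9033 UMIs against 8566 to 17648 in the highest, and the part of depth was not tested. These splits were chosen after the data were seen, cells of a library are not replicates, and no test is given.

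**Figure D4:**
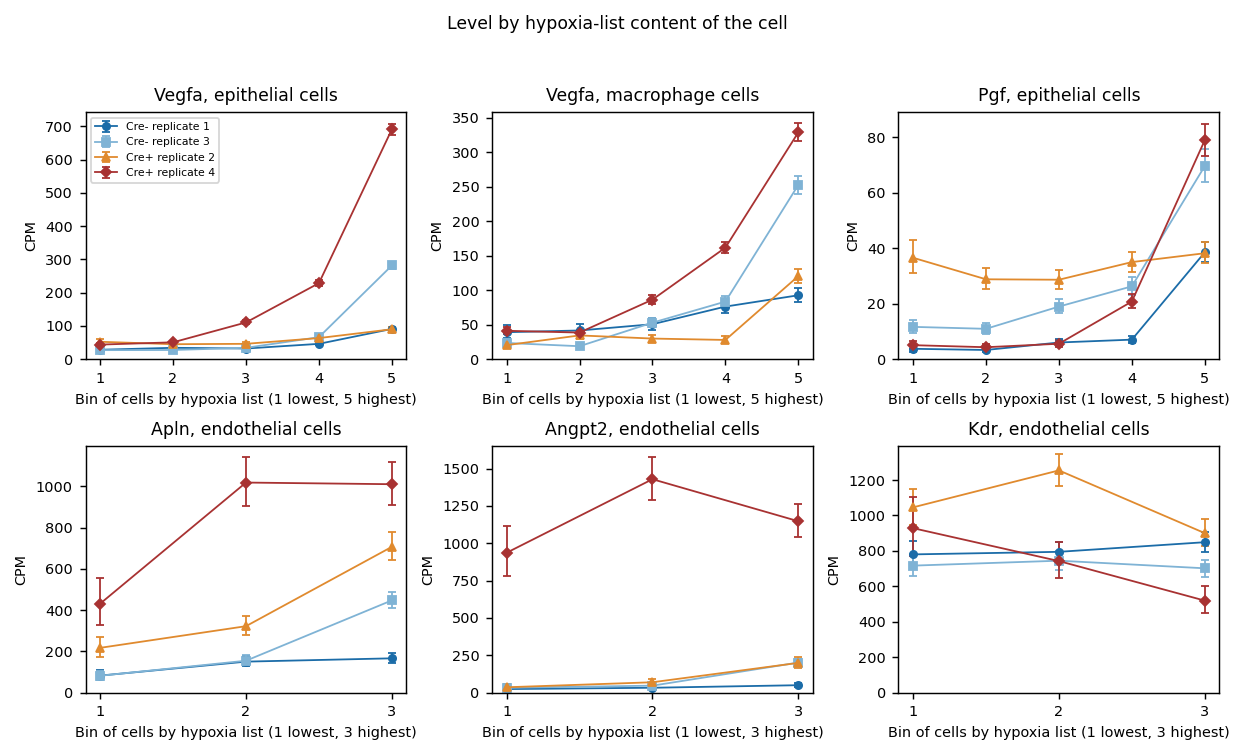
Level (CPM, with 95% Poisson intervals of the counts) of Vegfa in epithelial cells and macrophages, Pgf in epithelial cells, and Apln, Angpt2 and Kdr in endothelial cells, by bins of cells ordered by hypoxia-list share (5 bins, or 3 in endothelial cells), with 1 line per library. Vegfa reached 691 CPM in the highest epithelial bin of Cre+ replicate 4, while Kdr stayed between 519 and 1254 CPM.

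To ask whether the members differed between genotypes, Cre+ and Cre- libraries were compared within 6 classes. Genes of low count were filtered out first. Of the 10 members, 9 were tested in epithelial cells, endothelial cells and fibroblasts, 7 in macrophages, 4 in pericytes and 1 in neutrophils. No tested member was called in any class by edgeR's quasi-likelihood test with Benjamini-Hochberg adjustment. Across all genes 0 of 15823 (0%) were called in epithelial cells, 0 of 9951 (0%) in endothelial cells, 0 of 6026 (0%) in pericytes, 1 of 12404 (0.00806%) in fibroblasts, 0 of 12961 (0%) in macrophages and 0 of 3838 (0%) in neutrophils. At an unadjusted p under 0.05 there were 381, 441, 213, 585, 242 and 281 genes in this order of classes. Their share of the genes tested was below 0.05, the share that this threshold allows without any difference, in each class but neutrophils. DESeq2 called 58, 4, 3, 53, 13 and 4 genes, with Apln in endothelial cells as the only member (adjusted p = 0.012).

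In endothelial cells 5 of the 8 members at 10 CPM or more were higher in both Cre+ libraries than in both Cre- libraries (Flt1, Nrp1, Dll4, Apln and Angpt2), which held for 15.9% of 8100 genes. None was lower in both, which held for 1368 of the 8100 genes. Apln had a log2 fold change of 1.80 ± 0.41 (SE), with means of 197 ± 78 and 677 ± 334 CPM (SD, n = 2 each) in Cre- and Cre+ (adjusted p = 0.997 by edgeR). Leaving out 1 library gave 1.44 without Cre- replicate 1 and 2.28 without Cre- replicate 3, neither called (adjusted p = 0.9999 and 0.998 by edgeR), and 1.13 without Cre+ replicate 4 and 2.27 without Cre+ replicate 2, both called. The last 2 fits hold a single Cre+ library, so their spread comes from the Cre- pair alone and the lone library is assumed to vary likewise. Without a filter on low counts edgeR called 194 genes in endothelial cells, Apln and Angpt2 among them, against 0 with the filter. These calls thus depended on the filter, and the high Angpt2 level was that of Cre+ replicate 4 alone.

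Angpt2 had a log2 fold change of 3.26 ± 1.01 (SE, adjusted p = 0.997 by edgeR), and this was 4.15 without Cre+ replicate 2 but 0.60 without Cre+ replicate 4, since Cre+ replicate 2 (109 CPM) lay next to Cre- replicate 3 (104 CPM). Dll4 differed by 0.58 ± 0.18 and Nrp1 by 0.61 ± 0.20 on the log2 scale (SE). These kept their sign without each library in turn, at 0.52 to 0.64 and 0.39 to 0.80. Flt1 differed by 0.44 ± 0.16 and Kdr by 0.20 ± 0.22 on that scale. Tek had a log2 fold change of -0.63 ± 0.33 (SE), with the 2 genotypes overlapping (-0.25 without Cre+ replicate 4 and -1.26 without Cre+ replicate 2). Kdr turned to -0.13 without Cre+ replicate 2. The number of tip-like barcodes also differed between the libraries (26 of 175 and 53 of 167 in Cre-, 43 of 131 and 35 of 71 in Cre+). So did the median depth (13306 and 14594 against 10738 and 6123 UMIs). The summed level of the hypoxia list was 1856 and 1776 against 1614 and 2507 CPM. It was lowest in Cre+ replicate 2 and highest in Cre+ replicate 4, and so did not separate the genotypes. The part of tip-like barcodes, depth and the hypoxia list in the differences was not tested.

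**Figure D5:**
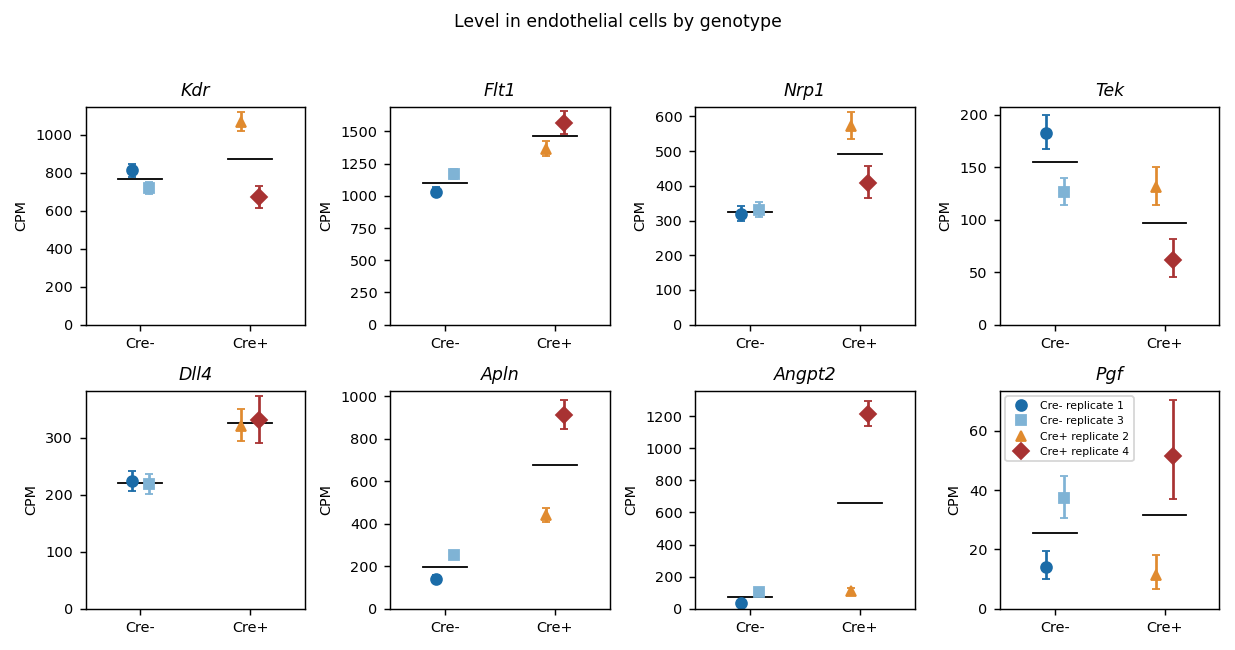
Level in endothelial cells (CPM) by genotype, with 1 point per library, 95% Poisson intervals of the counts as error bars and a line at the mean of each genotype. Dll4, Apln, Flt1 and Nrp1 were higher in both Cre+ libraries, Angpt2 was at 1213 CPM in Cre+ replicate 4 alone, and Kdr and Tek overlapped.

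For Vegfa the genotypes overlapped in epithelial cells (45.4 and 76.4 CPM in Cre-, 60.9 and 199 in Cre+) and the log2 fold change of 1.19 ± 0.68 (SE) turned to -0.05 without Cre+ replicate 4. In macrophages it was 0.35 ± 0.53 and turned to -0.65 without that library. In fibroblasts Vegfa was lower in both Cre+ libraries (72.8 and 70.3 CPM in Cre-, 49.2 and 62.7 in Cre+), as were 22.2% of the 8320 genes of at least 10 CPM. Its log2 fold change of -0.34 ± 0.15 (SE) was not called. Apln in fibroblasts, at means of 6.8 in Cre- and 2.5 CPM in Cre+, had -1.52 ± 0.40. Its receptor Aplnr had -1.10 ± 0.42 in endothelial cells. Flt1 in epithelial cells, at means of 1.0 and 4.2 CPM, had 2.15 ± 0.62. These 3 differences (log2 scale, SE) were not called. The level of the hypoxia list in epithelial cells was 2214 and 2422 CPM in Cre- replicates 1 and 3, 2548 in Cre+ replicate 2 and 4391 in Cre+ replicate 4. Of the 14 genes of the list, 12 had a positive and none a called difference in epithelial cells. The Cre+ libraries were not alike in this. In Cre+ replicate 2, Pgk1 (135 CPM, against 148 and 219 in Cre-), Bnip3, Ndrg1, Egln3 and Higd1a lay below both Cre- libraries. Ldha, Aldoa, Pdk1 and Ankrd37 lay above both there, and the rest lay between. Vegfa was also at 182 CPM in the free RNA of Cre+ replicate 4, while the endothelial cells of that library held 25.8 CPM. The share of the Cre+ replicate 4 values that came from hypoxia, free RNA or processing was not tested.

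The effect of genotype was also compared between classes, by an interaction across 15872 genes. This fit had no term for the mouse, so class sums of the same mouse were treated as independent. No gene and none of the 30 member tests was called in it (the smallest adjusted p of the members was 0.99994 by edgeR). The genotype effect was therefore not shown to differ between epithelial, endothelial and other cells.

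Of 25 other genes of the pathway, 24 were tested across classes and Apela, a second ligand of Aplnr, had no UMI in these sums. In endothelial cells 19 were called higher, where 29.0% of all genes were, and none lower, led by Ptprb (573 CPM, mean of 4 libraries), Aplnr (391) and Tie1 (314), a phosphatase acting on TIE2, the apelin receptor and the partner receptor of TIE2. Esm1, which is also a tip-like marker, was at 757 CPM and ranged from 137 to 1848 CPM over the libraries. Fibroblasts had 13 higher (40.0% of all genes) and 1 lower, led by Vegfd (118 CPM), a ligand of the lymphatic receptor Flt4, Sema3c (381), a semaphorin, and Pdgfrb (131). Pericytes had 8 higher (23.6% of all genes), led by Pdgfrb (1043 CPM), which anchors them to the vessel, Jag1 (169), a Notch ligand, and Plxnd1 (107). The mean of Plxnd1 was higher in endothelial cells (699 CPM). Epithelial cells had 8 higher of 24 tested, where 42.0% of all genes were, and 3 lower. The higher genes were led by the Notch target Hey1 (64.3 CPM), Ephb4 (27.6) and Adm (48.9), the peptide adrenomedullin. Hey1 ranged from 6.3 to 131 CPM over the libraries. Ephb4 and Adm had higher means in endothelial cells (88.0 and 97.0 CPM), and Adm also in fibroblasts (85.5). Macrophages had 5 higher of 24, where 26.6% of all genes were, and 1 lower. The higher genes were led by Pdgfb (90.5 CPM), the ligand of Pdgfrb, Vash1 (1.2) and Nrp2 (65.2). Pdgfb, Vash1 and Nrp2 had higher means in endothelial cells (233, 20.2 and 209.9 CPM). The lists were chosen with earlier results known, and the medians were 5.69 in endothelial cells, 1.77 in fibroblasts, 1.17 in pericytes, -0.07 in epithelial cells and -0.04 in macrophages, against 0.11, 0.29, 0.08, 0.34 and 0.09 for all genes (log2 differences). Between genotypes no tested pathway or hypoxia gene was called in any of the 6 classes. In pericytes 6 of 25 pathway and 9 of 14 hypoxia genes were tested, and in neutrophils 2 and 12.

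Among 9986 genes of at least 20 CPM in a class that were neither members nor markers, the patterns most like those of the members over the 10 classes were named by Pearson's r of log2(mean CPM + 1), as a description. For Kdr these were Kcng2, Pkn3 and Prnd (r = 0.95 each) and for Flt1 Tpm4, Hoxa5 and Hoxb4 (r = 0.95 to 0.97). Tek was followed by Ackr2 (r = 0.997), Dchs1 and Tspan18, and Nrp1 by Pparg (r = 0.96), Plxnd1 and Ilk. Dll4 was most like Adgrl4, Nos3 and Clca2 (r = 0.98 each), Apln like Rapgef3, C130074G19Rik and Colgalt2 (r = 0.98 each), and Angpt2 like Pcdh12, Snrk and Foxf1 (r = 0.97 to 0.98). The remaining ligands were Angpt1, most like Gas1 (r = 0.99), Smarca1 and H2afy2, Pgf, most like Zfp326 (r = 0.91), Clca3a1 and Fignl2, and Vegfa, most like Cstb (r = 0.94), Oas2 and Tmem120a. The 10 points share libraries and depth.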

How the data were processed

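The UMI counts came from Cell Ranger, per the file headers in version 6.1.2 for the first 3 libraries and version 4 for the fourth, and the authors deposited them as raw counts per gene and barcode without normalization. The labels name a human build while the gene identifiers are those of mouse, so no coordinates were taken from the files. Cell classes were rebuilt here. Barcodes with at least 1000 UMIs and at most 20% mitochondrial UMIs were kept. A class needed 4 markers with a UMI where its list held 8 and 3 where it held 5 to 7, with no other list met, except that barcodes meeting the macrophage list were not placed with monocytes or dendritic cells. Mixed barcodes were left out in place of a doublet caller. This rule was settled after marker counts were seen, and the stricter gate (1 marker more) was redefined after its first version left 1 to 2 pericytes per library. The members and all lists were chosen with earlier results of these data known.

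UMIs were summed per library and class and tested with edgeR 4.0.16 (quasi-likelihood, TMM, filterByExpr) in R 4.3.3, with at least 20 barcodes per sum across classes and 10 between genotypes and Benjamini-Hochberg adjustment at 0.05. DESeq2 1.42.0, other scaling, filters, barcode limits and gates and leaving out each library were the alternatives. The steps were tested on simulated data. Each replicate was taken as 1 mouse, and the study's methods do not state the number of mice per library. Intervals are exact (95%, Poisson or Clopper-Pearson) and cover counting error only, and a count of 0 allows 3 UMIs. The named genes were the 10 members, Frmd8, up to 3 genes of each list with the largest called difference, and the 3 genes most like each member. Esm1, Pi16, Dpp4 and Foxp3 were named after values were seen. At least 3 of 5 smooth muscle markers were found in 70 to 171 barcodes per library, at least 2 of 4 Schwann markers in 158 to 498, mostly epithelial, and at least 3 basal markers in 16 to 95 epithelial barcodes, and these lists were not used as classes.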

Additional observations from a re-analysis of the deposited data

Results flagged for a closer look

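The barcodes with 1 to 100 UMIs of Cre+ replicate 4 (2078989 barcodes with 4981956 UMIs) were outside all comparisons, and 9 of the 10 members lay above the 3 counts that a count of 0 allows there. Vegfa was at 182 CPM in them, Angpt2 at 17.3, Nrp1 at 15.9, Flt1 at 15.1, Pgf at 14.9, Apln at 12.4, Dll4 at 5.8, Kdr at 4.0 and Angpt1 at 0.80. Tek, with 3 UMIs, was not above this limit. The other libraries were deposited as called cells of at least 500 UMIs, so free RNA could not be compared between libraries.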

How the results depend on the processing

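The 8 members called higher in endothelial cells were the same 8 under all 11 alternatives. Counts of genes called between genotypes were not stable with 2 mice per group. DESeq2 called 58 genes in epithelial, 4 in endothelial, 3 in pericyte, 53 in fibroblast, 13 in macrophage and 4 in neutrophil cells. Without a filter on low counts 194 were called in endothelial, 41 in pericyte, 496 in fibroblast, 27 in macrophage and 71 in neutrophil cells. In fibroblasts 0 were called with the upper limits on UMIs and genes and 0 with the stricter gate. Leaving out 1 library gave 0 to 20 genes in epithelial cells, 0 to 172 in endothelial, 0 to 245 in pericyte, 0 to 9 in fibroblast, 0 to 2715 in macrophage and 9 to 137 in neutrophil cells, with the most without Cre+ replicate 2 in each class. The 11 member differences kept their direction and side of the threshold in 98 of 110 alternatives, 7 became called, and 5 turned. Vegfa in epithelial cells ranged from -0.053 to 1.84 and turned without Cre+ replicate 4, as it did in macrophages (-0.65), while without Cre+ replicate 2 the macrophage value was 0.91. Both macrophage values were called, in opposite directions, in fits with 1 Cre+ library whose spread comes from the Cre- pair alone. Kdr in endothelial cells ranged from -0.13 (without Cre+ replicate 2) to 0.46, and Angpt1 in fibroblasts turned with the upper limits (0.40) and ranged from -0.76 to 0.18 without 1 library (turned without Cre- replicate 1). The epithelial share of Vegfa UMIs was 40.3% with the upper limits and 47.3% to 50.8% without 1 library. Neutrophils could not be fitted with the order-of-magnitude cells of Cre+ replicate 4, which left 1 barcode. This limit, above 10978 UMIs, left 23 of the 71 endothelial barcodes and 11 of the 17 pericytes of that library. The cause of these changes was not tested. No paired analysis was possible between genotypes because they share no replicate number. In the test of each class against the others the mouse was the block, and without it the same 8 members were called. The interaction between genotype and class was fitted without this block. Depth limits Vegfa in endothelial cells (47 UMIs in all) and the 17 to 44 pericytes per library.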
